A study of Mus musculus with 4 samples.

Results

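The transcription factors described here are 10 genes that direct progenitors into the T lineage: Tcf7, Lef1, Bcl11b, Bcl11a, Gata3, Myb, Gfi1, Runx1, Runx3 and Cbfb. They were chosen by name, with earlier results of these data known, and all 10 were found among the 24391 genes of the count table. Of these, 9 passed the filter on low counts and were tested. Bcl11a did not pass and is given by its counts.

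T-cell progenitors enter the thymus with open lineage options, and Notch signaling is the external signal that starts the T-cell program there. Early in that program Notch helps to switch on TCF-1, the HMG-box factor encoded by Tcf7, and GATA-3, and Bcl11b follows at the commitment step, after which alternative fates are closed. Runx factors act through all of these stages as dimers with CBFβ, while Myb supports the growth and survival of the progenitors and the repressor Gfi1 limits the programs of other lineages.

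RNA-Seq was measured in Beko cells, a mouse progenitor T-cell line in which the Notch pathway is constitutively active. The γ-secretase inhibitor (GSI) was DAPT, which prevents the cleavage that releases the intracellular domain of Notch. The GSI condition comprised 2 libraries of cells kept in the inhibitor for 48 h, and the washout condition comprised 2 libraries of cells treated in this way for 48 h and then freed of the inhibitor by washing, with 24 h of further culture. Both conditions therefore passed through the same inhibitor treatment, the study's methods say that fresh inhibitor was given after a wash at 24 h, and the comparison asks how expression changed once the block was lifted. The labels give the dose as 10 mg/ml and the study's methods as 10 μg/ml. All libraries come from 1 cell line. A washed condition that stayed in the inhibitor was not analysed here, so the return of Notch activity cannot be told apart from the wash and the longer culture. The labels do not say that replicates are separate cultures, and the p-values measure the spread between these libraries, which may be technical. In bulk RNA, fewer cells of a type and less RNA per cell cannot be told apart.

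Total counts ranged from 13716199 to 36364200 per library, and replicate 1 was the deeper library in both conditions. Levels are given as CPM, in which counts are divided by the library total and a TMM factor, and differences as log2 fold changes of washout against GSI, so that a negative value means a lower level after washout. Log2 CPM correlated at 0.990 and 0.988 between replicates and at 0.935 to 0.947 between conditions. Of the 5 Notch targets used as a check, Hey1, Dtx1, Hes1 and Nrarp were higher upon washout by 3.47, 3.20, 1.42 and 1.31 on the log2 scale, with adjusted p-values of 0.000281, 0.000396, 0.0282 and 0.00104 in edgeR's quasi-likelihood test. Hes1 was at 0.92 without GSI replicate 2, and Notch3 differed by 0.14 with an adjusted p-value of 0.499. All 25 genes of a list of T-cell identity genes, Cd3e, Lck and Rag1 among them, passed the filter. Pax5, Ebf1, Lyz2, Elane and Hbb-b1, which define B cells, myeloid cells and erythroid cells, had no counts in any library, but other genes of the same marker lists, Cpa3, Itgam and Blnk among them, were present and differed between the conditions.

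Across all 12266 genes tested, 19.5% were called, meaning an adjusted p-value under 0.05 together with a log2 fold change beyond 1 in either direction. The share was 7.74% for higher genes and 11.7% for lower genes. Of the 9 tested factors, none was called higher and 2, Gata3 and Runx3, were called lower. Beside the share of all genes, a count of 2 in 9 describes these 2 genes and is no result about the group. The counts called in the lists of other genes below are likewise descriptions, to be read beside these shares. By the adjusted p-value alone 52.5% of all genes passed. So did 8 of the 9 factors, of which Tcf7, Bcl11b, Gata3, Gfi1, Runx1 and Runx3 were lower and Lef1 and Cbfb were higher. For all 9 factors the libraries of the conditions did not overlap, which was also so for 77.3% of all genes tested. The median log2 fold change of the 9 was -0.72, against -0.01 for all genes, whose middle 50% lay between -0.55 and 0.47.

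The factors together took up a smaller share of the counts after washout. They made up 0.402% and 0.374% of all counts in the GSI libraries and 0.258% and 0.240% in the washout libraries. Most of these counts came from Tcf7, Myb and Bcl11b, and every one of these 3 genes had its higher values in GSI.

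**Figure D1:**
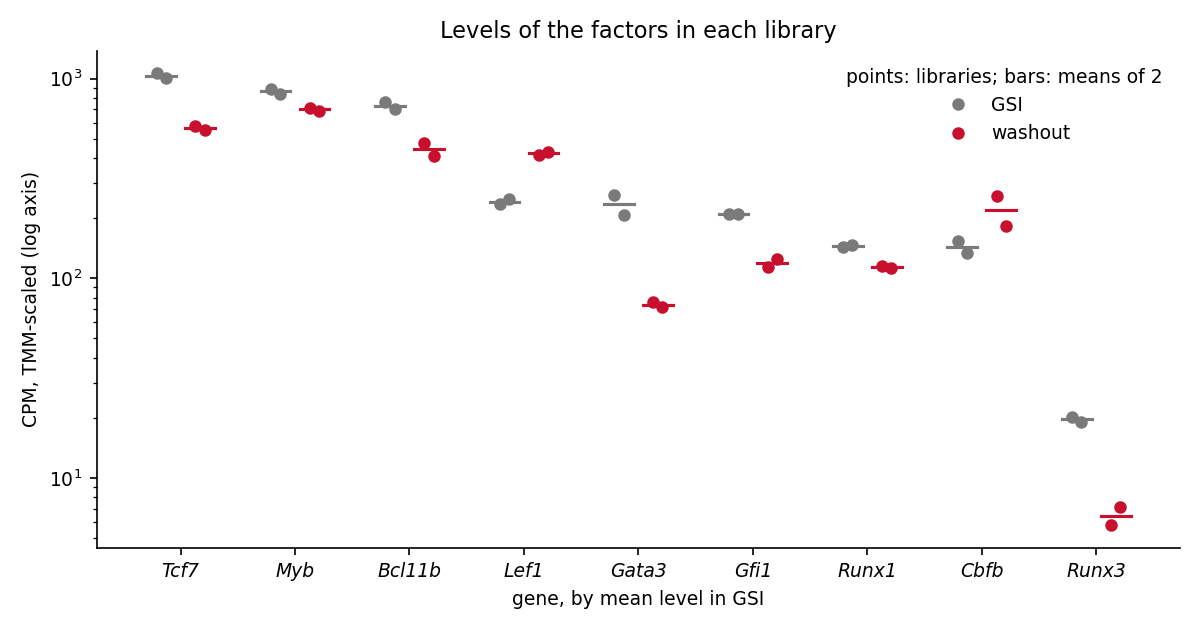
Levels of the 9 tested factors in each of the 4 libraries, in TMM-scaled CPM on a log axis, with GSI in gray and washout in red, 1 point per library and a bar at the mean of 2. Gata3 and Runx3 lie about 3-fold apart between the conditions, and only Lef1 and Cbfb have their higher values after washout.

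The start regions of the factors were searched for 4 short motifs on both strands, since binding of the factors to one another's genes and of RBPJ, the DNA-binding partner of Notch, is part of how this network is described. The sequences are those of RefSeq, from 250 bases before to 50 bases after each annotated start, and all 17 windows of the 10 genes were found without mismatch in the mm9 genome. Positions are counted from the start as 0. TGGGAA, the core bound by RBPJ, was in 5 of the 17 windows and in 25.6% of all 32851 mouse windows.

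The RUNX motif TGTGGT was in 2 of the 17 windows and in 16.8% of all.

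The TCF/LEF core CTTTGA was in 2 of the 17 windows and in 16% of all.

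The GATA motif AGATAA was in 1 of the 17 windows and in 11.2% of all. These letters were not in the windows of Tcf7, Gata3, Myb, Gfi1 or Cbfb. The shares are given as a description, and a match is neither a site nor a cause. Sites outside these windows, or with other letters, were not searched, so a missing match does not show that a gene lacks such sites. In the study, RBPJ sites with lower binding under GSI lay mostly far from gene starts.

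The RUNX windows are shown because the paralogs share a stretch there. Both carry the motif as a tandem on the reverse strand, read as ACCACA in the 5′ to 3′ direction of the gene, and capitals mark the motif copies as well as the RBPJ core in Runx3.
Runx1, mm9 chr16:92826270-92826299, minus strand, motif copies starting at 28 and 36: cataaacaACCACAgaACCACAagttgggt
Runx3, mm9 chr4:134676394-134676451, plus strand, RBPJ core at -154 and motif copies at -134 and -126: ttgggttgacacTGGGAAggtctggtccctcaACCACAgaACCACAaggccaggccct

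The longest run common to both windows is 18 bases long.
Shared by Runx1 and Runx3: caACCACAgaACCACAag

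This run was in 4 of the 32851 windows (0.0122%), namely those of Runx1, Runx2, Runx3 and Gm16225. The window of Gm16225 lies on the opposite strand and overlaps that of Runx3 on chromosome 4, so its copy and that of Runx3 are the same stretch of DNA. The tandem with any 2 bases between the copies, ACCACANNACCACA, was in 7 windows (0.0213%). Both patterns were taken from the windows of Runx1 and Runx3 shown here, so these shares are a description and no test of rarity. In Runx1 the tandem lies in the transcribed part and in Runx3 it lies upstream of the start. The window at the other annotated start of each of these genes held none of the motifs.

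For Lef1, 2 RBPJ cores were found, both shortly after annotated starts. A further start inside the gene carried 2 copies of the TCF/LEF core on the reverse strand, as TCAAAG. Capitals mark these cores.
Lef1, mm9 chr3:130813241-130813264, plus strand, RBPJ core at 38: gaggagaagcggTGGGAAggcgca
Lef1, mm9 chr3:130815740-130815758, plus strand, RBPJ core at 43: tgagtacgcatcTGGGAAg
Lef1, mm9 chr3:130859020-130859049, plus strand, TCF/LEF core at -180: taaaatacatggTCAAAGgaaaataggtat
Lef1, mm9 chr3:130859080-130859109, plus strand, TCF/LEF core at -120: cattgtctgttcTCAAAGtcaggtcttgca
Bcl11b, mm9 chr12:109241696-109241725, minus strand, TCF/LEF core at -89: agaggccaagcaCTTTGAagaagtgtgaga

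The Bcl11b window is the other one with a TCF/LEF core. Outside Lef1, the RBPJ core was in the windows of Runx3, which was called lower, and of Bcl11a, at -161. The first Lef1 core is also within the window of a second, nearby start and was counted in both.

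The HMG-box factors Tcf7 and Lef1, which bind the same DNA core and both use β-catenin and Groucho-type partners, moved in opposite directions. Tcf7 (chr11:52065873-52096681, minus strand) had 1062 and 1009 CPM in the GSI libraries and 581 and 555 CPM in the washout libraries. Both washout libraries lay below both GSI libraries, and the replicates lay close together. The difference was -0.87 on the log2 scale (SE 0.115, 95% interval -1.14 to -0.59), a 1.82-fold lower level, with an adjusted p-value of 0.00160 in edgeR's test, past the p-value threshold but not the fold-change threshold. Lef1 (chr3:130813389-130927274, plus strand) had 236 and 248 CPM under GSI and 413 and 430 CPM after washout. Here both washout libraries were the higher ones. The log2 fold change was 0.80 (SE 0.0996, 95% interval 0.56 to 1.04), a 1.74-fold higher level, with an adjusted p-value of 0.00131 in edgeR's test.

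The balance of the pair shifted within each library. Per kb of exon, Tcf7 had 13.97 and 12.61 times the reads of Lef1 in the GSI libraries and 4.36 and 3.998 times in the washout libraries, so that Tcf7 remained the more abundant of the 2 in every library. The ratio was 3.18-fold lower after washout, a difference of -1.67 on the log2 scale, and the libraries did not overlap. The exact two-sided permutation test gave p = 0.333, which is the smallest value that 2 against 2 libraries can reach. As a within-library ratio this measure does not depend on how libraries are scaled to each other. The summed level of the pair was 1297 and 1257 CPM under GSI and 993 and 985 CPM after washout, lower in both washout libraries, and the gain of Lef1 thus covered only part of the lower level of Tcf7.

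**Figure D2:**
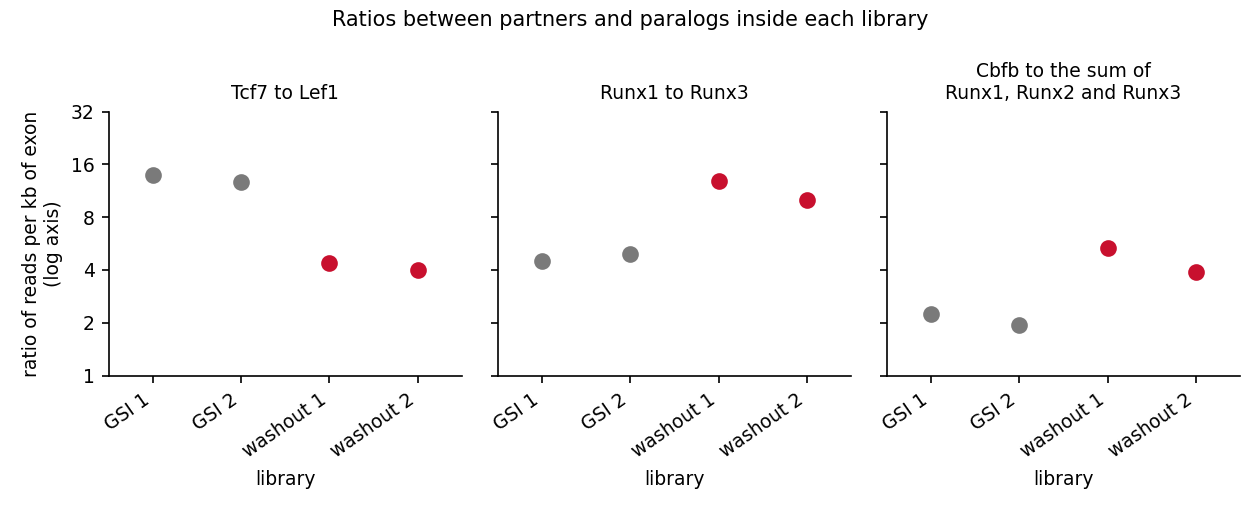
Ratios of reads per kb of exon inside each library, on a log axis, with 1 point per library for Tcf7 to Lef1, Runx1 to Runx3, and Cbfb to the sum of Runx1, Runx2 and Runx3. The Tcf7 to Lef1 ratio is lower in both washout libraries (4.36 and 3.998 against 13.97 and 12.61), and the other ratios are higher in both.

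The partners of these factors were looked at as a list of 11 relatives and cofactors, of which 7 were tested. None was called higher and 3 were called lower, with a median log2 fold change of -0.67. The summed level of the list was nevertheless higher after washout, at 1392 and 1393 CPM against 1209 and 1237 CPM. This rise came from 2 abundant members, since the other 5 tested genes lay below 0. Ctnnb1, which encodes β-catenin, differed by 0.59 (adjusted p = 0.00563, edgeR) and the Groucho gene Tle3 by 0.67 (0.0150), both past the p-value threshold but not the fold-change threshold. Called lower were Tle2 at -2.62 (adjusted p = 0.00578, edgeR), Aes at -1.53 (0.000503) and Bcl9l at -1.40 (0.000868). Tle2 encodes a Groucho corepressor, Aes a short relative of the Groucho proteins, and Bcl9l a coactivator that binds β-catenin. Bcl9l was at -0.94 when GC content and exon length were corrected for, short of the fold-change threshold. Tle2 was a rare transcript, with 75 and 23 counts in GSI and 14 and 2 counts after washout. The other relatives of the HMG-box pair were nearly silent, since Tcf7l1 had 3 to 8 counts per library and Tcf7l2 had none, which leaves Tcf7 and Lef1 as the members of their family that passed the filter.

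Bcl11b (chr12:109148613-109241812, minus strand), the zinc-finger factor of the commitment step, had 759 and 702 CPM under GSI and 474 and 411 CPM after washout. Both washout libraries lay below both GSI libraries. The difference came to -0.72 on the log2 scale (SE 0.1248, 95% interval -1.03 to -0.42), a 1.65-fold lower level with an adjusted p-value of 0.00423 in edgeR's test, and it was -0.47 when GC content and exon length were corrected for. Its paralog Bcl11a (chr11:23978056-24074123, plus strand), which is needed in B-cell and early lymphoid progenitors, had 2 counts in the first GSI library and 0 counts in the other 3. The limit that 3 counts set was 0.0937 and 0.206 CPM in the GSI libraries and 0.0881 and 0.223 CPM in the washout libraries, for counting error only. A difference of Bcl11a was not detectable at this depth, and no ratio to Bcl11b was formed.

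Gata3 (chr2:9778705-9811661, minus strand), the GATA factor that T cells need from their earliest stages, was one of the 2 factors called lower, with a difference close to that of Runx3. Which of them had the more negative value depended on the libraries, since without GSI replicate 1 Gata3 was at -1.501 and Runx3 at -1.57. Gata3 had 262 and 208 CPM under GSI and 75.8 and 71.7 CPM after washout. The GSI libraries differed from each other by 0.33 on the log2 scale, whereas the nearest libraries of the 2 conditions were 1.46 apart. The log2 fold change was -1.67 (SE 0.134, 95% interval -2.00 to -1.35), a 3.19-fold lower level, with an adjusted p-value of 0.000438 in edgeR's test. When the genes were ordered from the most negative log2 fold change, Gata3 was at place 642 of 12266.

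Gata3 shares its locus with 4930412O13Rik on the other strand and 9230102O04Rik on the same strand, and the strand setting of the counting is not given in the sources used here. The counts of these genes were 202, 76, 103 and 53 for 4930412O13Rik and 133, 28, 64 and 27 for 9230102O04Rik in GSI replicates 1 and 2 and washout replicates 1 and 2, against 8382, 3038, 2581 and 964 for Gata3. Both neighbors were thus far below Gata3 in every library. Gm13256, on the other strand, also overlaps Gata3 and is not in the count table. How reads that fall on 2 genes were counted is not given either, so these counts do not show what the overlap added to or took from Gata3. Of 8 other GATA factors and cofactors, 4 were tested. None was called higher and 1, Gata1, was called lower (-1.26, adjusted p = 0.00326, edgeR), with 10.6 and 9.11 CPM under GSI and 4.35 and 3.87 CPM after washout. Gata2, the relative that progenitors and mast cells use, had 1 count in each of the deeper libraries and 0 in the others, so that no ratio of Gata3 to Gata2 was formed. The cofactors Zfpm1 and Ldb1 differed by 0.25 and 0.04 with adjusted p-values of 0.0536 and 0.793.

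Myb (chr10:20844736-20880790, minus strand), the proto-oncogene whose product keeps progenitors cycling, had 888 and 836 CPM under GSI and 716 and 691 CPM after washout. Its libraries did not overlap, yet the nearest of them were only 0.22 apart on the log2 scale. The log2 fold change was -0.29 (SE 0.114, 95% interval -0.57 to -0.02), and the adjusted p-value of 0.0707 in edgeR's test missed the threshold. The adjusted p-value passed in 7 of 16 alternatives, among them the scaling by total count alone and correcting for GC content and exon length, and ranged from 7.7e-05 to 0.320. Of the 4 relatives and cofactors of Myb, all were tested, and Mybl2, which is expressed in dividing cells, was called higher at 1.15 (adjusted p = 0.000395, edgeR), from 57.6 and 59.1 CPM under GSI to 127 and 132 CPM after washout. It was at 0.95 with total counts alone. None was called lower, but Ep300 was at -0.88 with an adjusted p-value of 0.00433 in edgeR's test, short of the fold-change threshold. Mybl1 was at 0.79 with 0.0111, and Crebbp at -0.37 with 0.0987.

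Gfi1 (chr5:108145674-108155056, minus strand), a repressor that recruits LSD1 and CoREST, had 209 and 211 CPM under GSI and 114 and 125 CPM after washout. The GSI replicates were nearly equal, and both washout libraries lay below them. The log2 fold change was -0.81 (SE 0.0962, 95% interval -1.04 to -0.58), a 1.75-fold lower level with an adjusted p-value of 0.00113 in edgeR's test. It was -0.49 when GC content and exon length were corrected for.

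Its paralog Gfi1b, which acts mainly in red cells and platelet precursors, went the other way from a low level. Gfi1b had 1.84 and 1.85 CPM under GSI and 9.49 and 6.55 CPM after washout, a log2 fold change of 2.13 (SE 0.277, adjusted p = 0.00153 in edgeR's test). Both washout libraries were the higher ones. Of the 14 relatives and corepressors of Gfi1 and the Bcl11 factors, all tested, 2 were called higher and 1 lower, with a median of 0.16. The other higher one was Rbbp7 (1.01, adjusted p = 0.00138, edgeR), a histone-binding subunit of NuRD, and the lower one was Rcor3 (-1.69, adjusted p = 0.00551), a CoREST relative. Rbbp7 lay just past the fold-change threshold and fell short of it in 9 alternatives, at 0.81 with total counts alone, 0.90 with upper-quartile factors, 0.83 when GC content and exon length were corrected for, and 0.92 and 0.88 without GSI replicate 1 or washout replicate 1. Kdm1a, which encodes the LSD1 that Gfi1 recruits, differed by 0.12 with an adjusted p-value of 0.292 in edgeR's test. Chd4, the NuRD ATPase, differed by -0.09 with 0.537. Of the 14, 5 passed the adjusted p-value alone, and 6, Kdm1a and Chd4 among them, passed neither threshold. Higher among the 5 were Hdac2 at 0.73 (adjusted p = 0.00202, edgeR), Mbd3 at 0.64 (0.00513), Rbbp4 at 0.51 (0.0117) and Mta1 at 0.34 (0.0173). Mta3 was lower at -0.46 (0.0280).

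The RUNX subunits that bind DNA were all lower after washout, whereas Cbfb, the partner that stabilizes their binding, was higher. Runx3 (chr4:134676567-134733905, plus strand), which serves in CD8 and cytotoxic cells, had 20.2 and 19.0 CPM under GSI and 5.79 and 7.14 CPM after washout, from 647, 277, 197 and 96 counts. The washout libraries lay well below the GSI libraries, the nearest being 1.41 apart on the log2 scale. Washout differed from GSI by -1.62 on the log2 scale (SE 0.170, 95% interval -2.03 to -1.21), a 3.07-fold lower level, with an adjusted p-value of 0.000786 in edgeR's test.

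Runx1 (chr16:92601712-92826311, minus strand), the main RUNX factor of early T-cell stages, had 143 and 147 CPM under GSI and 115 and 112 CPM after washout. The libraries did not overlap, but the difference was small, at -0.35 on the log2 scale (SE 0.0881, 95% interval -0.56 to -0.13), with an adjusted p-value of 0.0178 in edgeR's test. Without GSI replicate 1, GSI replicate 2 or washout replicate 2, the adjusted p-value was 0.0795, 0.127 and 0.0646. Correcting for GC content and exon length gave -0.22, and scaling by total count alone gave -0.55. Runx2, the bone factor that is also present in thymocytes, is no member of the group but completes the family, and it was called lower at -1.12 (SE 0.257, adjusted p = 0.0123 in edgeR's test). It had 10.3 and 9.52 CPM under GSI and 5.46 and 3.42 CPM after washout. Without GSI replicate 1 its adjusted p-value was 0.0523, and without washout replicate 2 it was at -0.85.

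Cbfb (chr8:107694574-107741886, plus strand) had 153 and 134 CPM under GSI and 257 and 183 CPM after washout. Both washout libraries were above both GSI libraries, but they differed from each other by 0.49 on the log2 scale, more than the 0.26 between the nearest libraries of the conditions. On the log2 scale the difference was 0.62 (SE 0.174, 95% interval 0.20 to 1.04), a 1.53-fold higher level with an adjusted p-value of 0.0253 in edgeR's test. Washout replicate 1 carried much of this difference, since it was 0.36 with an adjusted p-value of 0.0520 without that library and 0.86 without washout replicate 2. The adjusted p-value was also 0.0925 without GSI replicate 2 and 0.0890 with total counts alone.

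Within libraries, the RUNX genes changed their proportions. Per kb of exon, Runx1 had 4.52 and 4.96 times the reads of Runx3 in GSI and 12.8 and 10.1 times after washout, a 2.39-fold higher ratio. Cbfb had 2.23 and 1.94 times the reads of Runx1, Runx2 and Runx3 together in GSI and 5.32 and 3.89 times after washout, a 2.18-fold higher ratio. Neither ratio overlapped between the conditions, and each exact two-sided permutation test gave 0.333, the smallest p this design allows. The 3 ratios tested all gave that value, so that an adjustment over them leaves it at 0.333. The summed level of the 3 RUNX genes was 173 and 175 CPM under GSI and 127 and 122.5 CPM after washout. Of 5 relatives and cofactors of the RUNX factors, 4 were tested. None was called higher, and Cbfa2t3, an ETO-family corepressor, was called lower next to Runx2, at -1.52 (adjusted p = 0.000347, edgeR).

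**Figure D3:**
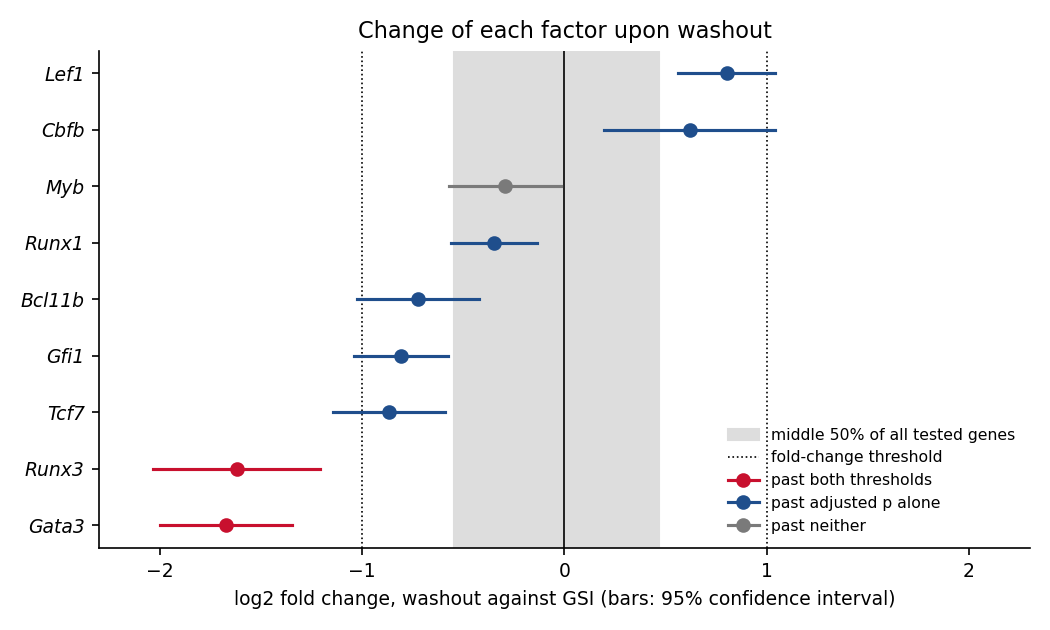
Log2 fold change of washout against GSI for each tested factor, with its 95% confidence interval and the call in color, over a gray band that holds the middle 50% of all tested genes (-0.55 to 0.47). The intervals of Gata3 and Runx3 lie wholly below -1, and those of Lef1 and Cbfb lie above 0.

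Compared per kb of exon, the levels of the factors covered a wide range. Tcf7 was at 371 CPM per kb in GSI and 203 after washout, and Myb at 228 and 186, which put them at places 1 and 2 in both conditions. Runx1, at 18.5 and 14.6, and Runx3, at 3.92 and 1.29, held places 8 and 9 in both. The order between them differed. In GSI it was Bcl11b (90.1), Gfi1 (64.5), Gata3 (59.1), Cbfb (49.2) and Lef1 (27.9), in which the libraries of Gfi1 and Gata3 overlapped, as Gata3 ranged from 52.3 to 65.8. Gata3 also overlapped Cbfb, whose libraries were at 46.0 and 52.5, so that neighbors in places 4 to 6 did not differ beyond the spread of their libraries. After washout it was Cbfb (75.5), Bcl11b (54.5), Lef1 (48.7), Gfi1 (36.9) and Gata3 (18.5). Cbfb thus came to place 3 from place 6 and Lef1 to place 5 from place 7, while Gata3 went from place 5 to place 7. Even after its lower level in washout, Tcf7 was the most abundant of the factors per kb of exon in both conditions. By CPM, without division by exon length, Myb was above Tcf7 in both washout libraries (716 and 691 against 581 and 555). The exon lengths are those of GENCODE vM1, whereas the study's methods name the Illumina iGenomes annotation for counting. Places and ratios per kb of exon thus depend on the lengths used.

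Genes that mark the stages which these factors govern were described next. Of the 25 T-cell identity genes, 2 were called higher, 9 lower and 14 neither, with a median log2 fold change of -0.58. Among all genes tested, 7.74% were called higher and 11.7% lower. The higher ones were Il2ra at 3.19 (adjusted p = 0.000343, edgeR) and Ptcra at 2.37 (0.000281), the α-chain of the IL-2 receptor and the pre-T-cell receptor α-chain, both of which mark the stages around β-selection. Il2ra had 1.44 and 1.51 CPM under GSI and 12.4 and 14.6 CPM after washout, and Ptcra had 47.1 and 54.4 CPM under GSI and 248 and 276 CPM after washout. Both were higher in both washout libraries. At Il2ra the study found static RBPJ sites as well as dynamic ones, where binding was lower under GSI. Whether the 2 rises go with a stage or with the return of Notch activity was not tested. Of the lower ones, the 4 largest falls were Zbtb7b, the ThPOK factor of CD4 cells, at -2.77 (adjusted p = 0.00634, edgeR), and the surface receptors Cd5 at -1.90 (0.00107), Cd6 at -1.70 (0.0139) and Cd28 at -1.47 (0.000315). Zbtb7b was scarce, with 47 and 15 counts in GSI and 8 and 1 after washout. Without GSI replicate 1 the adjusted p-values of Zbtb7b and Cd6 were 0.0516 and 0.0754. Of the 25 genes, 9 lay above 0 and 16 below, and among those above 0, Cd3g at 0.86 and Rag2 at 0.64 passed the adjusted p-value alone (0.00122 and 0.0297, edgeR).

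Of 14 early progenitor genes only 3 passed the filter, and Kit (-1.53, adjusted p = 0.000568, edgeR) and Lyl1 (-1.35, 0.0265) were called lower. Kit, the stem-cell factor receptor, had 98.8 and 89.3 CPM under GSI and 36.3 and 28.3 CPM after washout, and Lyl1, a basic helix-loop-helix factor of uncommitted progenitors, had 41 and 24 counts in GSI and 17 and 9 after washout. The call of Lyl1 was lost whichever library was left out, with adjusted p-values of 0.0562 to 0.210, and in DESeq2 at 0.148. Hhex, Mef2c, Meis1, Erg and Cd34 had no counts in any library. Of 10 genes of innate lymphoid and NK cells 5 were tested, and 2 were called lower, Il2rb at -3.27 (adjusted p = 0.00123, edgeR) and Rora at -2.90 (0.000484). Id2, the inhibitor of E proteins that such cells need, differed by -0.59 with an adjusted p-value of 0.0365, short of the fold-change threshold. The other 2 tested genes lay above 0, Nfil3 at 0.15 and Tbx21 at 0.26, with adjusted p-values of 0.455 and 0.442 in edgeR's test.

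**Figure D4:**
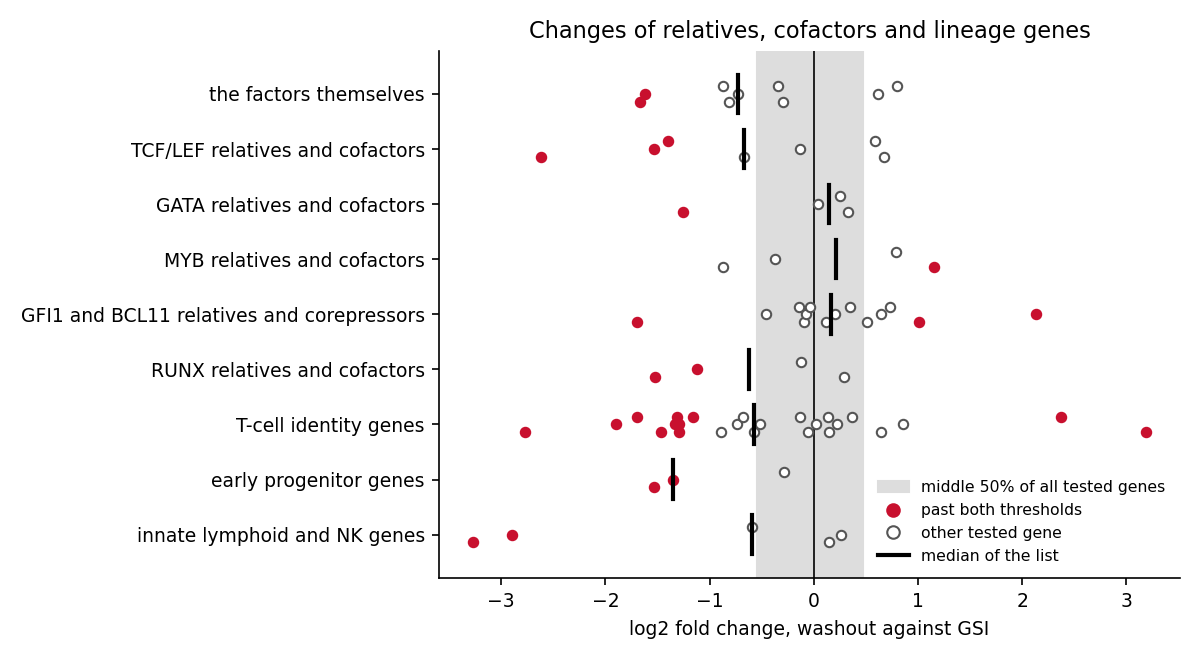
Log2 fold changes of the tested genes of each list, with filled points for genes past both thresholds, a black bar at the median of the list and a gray band for the middle 50% of all tested genes. Of the lists shown, that of T-cell identity holds the 2 largest rises, Il2ra at 3.19 and Ptcra at 2.37, and 9 called falls, while the factors themselves have a median of -0.72.

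Some markers of other lineages also differed between the conditions. Cpa3, a mast-cell protease, was called lower at -4.30 (adjusted p = 0.00212, edgeR) and Itgam at -3.08 (0.000297), and the sum over the 10 myeloid and mast-cell markers was 225 and 116 CPM under GSI and 14.8 and 7.14 CPM after washout. The other 8 of these were at or near 0, with 6 of them, Lyz2, Elane, Fcer1a, Ms4a2, Mcpt8 and Cebpa, having no counts in any library. The 8 B-cell markers summed to 9.50 and 6.58 CPM under GSI and 3.41 and 2.31 CPM after washout. Most of this came from Blnk, with 8.31 and 5.00 CPM under GSI and 2.94 and 1.64 CPM after washout. Blnk was called lower at -1.499 (adjusted p = 0.0169, edgeR) and was at -1.08 without GSI replicate 1, where it lost its call. Of the 6 erythroid markers, Tfrc, the transferrin receptor of dividing cells, was called higher at 2.14 (0.000363) and Klf1 lower at -1.18 (0.0325), while Epor differed by -0.86 with an adjusted p-value of 0.00721. Their sum was 238 and 302 CPM under GSI and 1183 and 1094 CPM after washout, nearly all of it from Tfrc, which alone had 225, 290, 1176 and 1087 CPM. Klf1 lost its call whichever library was left out, with adjusted p-values of 0.111 to 0.174, and in DESeq2 at 0.212. The part of these genes in the differences of the factors was not tested.

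None of the 9 tested factors changed its direction under any of the 16 alternatives that gave a log2 fold change. Gata3 lay between -1.87 and -1.501 and Runx3 between -1.82 and -1.27, and both were called lower in each. Scaling by total count alone moved the median of all genes to -0.21, and the called genes were then 587 higher and 1961 lower (23.0% higher) against 950 higher and 1437 lower (39.8% higher) with TMM factors. Tcf7 and Gfi1 then also passed the fold-change threshold, at -1.07 and -1.01, but relative to the shifted median they were at -0.86 and -0.80. Relative to it, Lef1 was at 0.81 and Cbfb at 0.63.

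**Figure D5:**
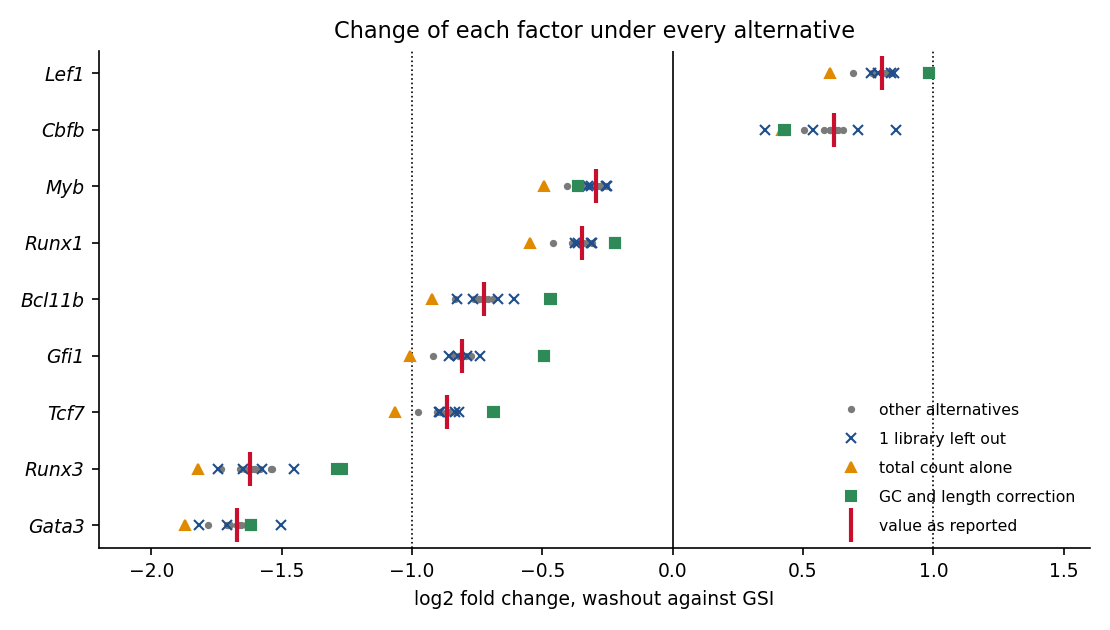
Log2 fold change of each tested factor as reported (red bar) and under each alternative, with crosses for fits that leave out 1 library, triangles for scaling by total count alone and squares for correcting for GC content and exon length. Each factor stays on its side of 0, and Cbfb spreads from 0.36 to 0.86 when a washout library is left out.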

How the data were processed

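RNA-Seq counts of 4 Beko libraries were used, in 2 conditions of 2 libraries, grouped by their labels. After trimming with trimGalore, the authors aligned reads to mm9 by HISAT2 2.2.1, counted them on genes by summarizeOverlaps and deposited the raw counts. The strand setting of the counting is not given in the sources used here. Positions, exon lengths and GC content came from GENCODE vM1 on mm9, which matched 20641 of 24391 symbols, and start regions from RefSeq (GRCm38.p6), matched to mm9.

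After filterByExpr and TMM scaling, all genes were tested by the quasi-likelihood method of edgeR 4.0.16 (R 4.3.3) and adjusted by Benjamini-Hochberg. Replicates had a biological coefficient of variation of 0.121. A standard error is the log2 fold change over the root of F. Alternatives were DESeq2 1.42.0, RLE, upper-quartile or total-count scaling, filters of 1 or 10 counts, the adjusted p-value alone, glmTreat (testing for changes beyond the fold-change threshold), thinning, a prior count of 2, correcting for exon length and GC content (available for 89.4% of tested genes), a replicate block, and leaving out each library. The code was tested on simulated data.

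The factors and lists were chosen with earlier results of these data known. Named are all factors, the Notch targets used as a check, Runx2 and Gata2, and in each list up to 4 largest rises and 4 largest falls past both thresholds. Tcf7l1, Tcf7l2, Ctnnb1, Tle3, Cd3g, Rag2, Epor, Zfpm1, Ldb1, Kdm1a, Chd4, Id2, the genes overlapping Gata3 and the markers without counts were named after their values were seen. So were Nfil3, Tbx21, Hdac2, Mbd3, Rbbp4, Mta1, Mta3, Ep300, Mybl1 and Crebbp.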

Additional observations from a re-analysis of the deposited data

How the results depend on the processing

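The number of factors called lower was 2 in every alternative that kept both thresholds except scaling by total count alone, where it was 4, and none was called higher in any of them. By adjusted p-value without the fold-change threshold, 6435 genes passed, and 2 factors were higher and 6 lower. The glmTreat test against a log2 fold change of 1 called 809 genes, Gata3 and Runx3 among them. Leaving out each library in turn, which leaves 1 library assumed to vary like those of the other condition, gave 1999 to 2419 called genes and 2 factors called lower each time. DESeq2 called 953 genes higher and 1166 lower, against 950 and 1437 in edgeR. No label says that replicate numbers pair the libraries, and with 2 pairs the deviations of replicate 1 correlated at 0.497 between the conditions, in both of which replicate 1 was also the deeper library. A fit with a replicate block called 2557 genes, and 2 factors were called lower. The adjusted p-values of Tcf7, Lef1, Bcl11b, Gata3, Gfi1 and Runx3 stayed under the threshold in all 16 alternatives that give one, whereas those of Runx1 and Cbfb did so in 13 each. Of the Notch targets, Hes1 was at 0.92 without GSI replicate 2 and had an adjusted p-value of 0.0727 in DESeq2. Of 34 called genes of the other lists and the Notch targets, 22 kept their call in every alternative with both thresholds and 12 lost it in at least 1, of which Il2rb and Tle2 lost it only because the filter of 10 counts in every library removed them. The cause of the other changes was not tested. Depth limited what could be said of Bcl11a and Gata2, whose counts were at or below 3 in every library.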
